A study of Mus musculus with 2 samples.

Results

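The basement membrane genes described here are 10 genes that encode the collagen IV chains Col4a1 and Col4a2, collagen XV (Col15a1), the laminin chains Lama4, Lama5, Lamb1, Lamb2 and Lamc1, nidogen 1 (Nid1) and perlecan (Hspg2). They were picked by name, as known components of basement membranes, and not by a cutoff on a measured value. Earlier results of these data were known when they were chosen. All 10 had a row in both count matrices, among 18155 genes in the diabetic matrix, 18225 in the control matrix and 19357 in either.

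The genes were followed across the cell classes of mouse aorta in a study of the AP-1 transcription factor complex in diabetic atherosclerosis. The diabetic animals were male Apoe -/- mice of the C57BL/6 strain that received streptozotocin, a poison of the insulin-secreting beta cells, at 55 mg/kg of body weight in daily intraperitoneal injections for 5 days, starting at 6 weeks of age. The control animals were male Apoe -/- mice of the same strain and age that were injected with citrate vehicle. Loss of apolipoprotein E, which clears lipoprotein remnants and whose absence leads to atherosclerosis, was therefore shared by both groups, and no mouse with intact Apoe was part of the comparison. Aortae were collected at 17 weeks of age, 10 weeks into follow-up, and enzymatically dissociated. The cells of 4 mice were then pooled within a group, sorted as viable and metabolically active cells, and made into 1 droplet library per group. With 1 library per group, variation between mice cannot be seen, no test of the groups is possible, and every interval given here covers counting error only.

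The diabetic library held 3458 barcodes and 17647604 unique molecular identifiers (UMIs, each standing for 1 captured transcript), and the control library held 4215 barcodes and 15314749 UMIs. The authors assigned 2524 diabetic cells (median 4477.5 UMIs) and 3060 control cells (median 3760 UMIs) to 13 classes, and 7 classes had at least 50 cells in each library. These were VSMCs-2 with 856 diabetic and 496 control cells, VSMCs-1 with 159 and 134, Fib-2 with 533 and 907, Fib-1 with 245 and 386, Fib-3 with 67 and 117, ECs with 228 and 366, and Mac with 229 diabetic and 510 control cells. The names of VSMCs-2, Fib-2 and ECs were in keeping with their markers: the 8 smooth muscle markers summed to 56637 and 57364 CPM (counts per 1000000 UMIs of the class) in diabetic and control VSMCs-2, the 8 fibroblast markers to 31960 and 42562 CPM in diabetic and control Fib-2, and the 10 endothelial markers to 8639 and 8991 CPM in diabetic and control ECs. The 8 macrophage markers summed to 25475 CPM in diabetic and 40695 CPM in control Mac. Diabetic Fib-1 had 35387 CPM of fibroblast markers beside 46236 CPM of erythroid markers. Diabetic VSMCs-1 had 39255 CPM of smooth muscle markers beside 37121 CPM of erythroid markers. The libraries shared 15 barcodes, of which 8 had a class in both. Haemoglobin made up 1.14% of the UMIs of diabetic annotated cells, against 0.217% in control cells.

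A basement membrane is a thin sheet of matrix under the endothelium and around each smooth muscle cell. Laminin heterotrimers of an alpha, a beta and a gamma chain assemble into a network on the cell surface, collagen IV trimers form a covalent network beside it, and nidogen and the heparan sulfate proteoglycan perlecan connect the networks. In the artery these sheets anchor cells through integrins and dystroglycan, keep smooth muscle in a contractile state and bind growth factors, and their thickening in small vessels is a textbook feature of diabetes.

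Col4a1 and Col4a2 encode the chains of the collagen IV trimer found in most basement membranes. The genes lie head to head on mouse chromosome 8, Col4a1 on the minus strand (chr8:11198423-11312826) and Col4a2 on the plus strand (chr8:11312805-11449287) of GRCm38. Their promoter windows are shown because the 2 genes start beside each other. Their levels followed each other across classes, as did those of members that lie apart, such as Col4a1 and Lamb2. Each window holds 250 bases before and 50 bases after the first base of the gene in RefSeq (GRCm38.p6), 5′ to 3′ on the strand of its gene, with the 78 bases that the windows share in capitals. The Col4a1 window is chr8:11312777-11313076 on the minus strand and the Col4a2 window is chr8:11312555-11312854 on the plus strand.
Col4a1: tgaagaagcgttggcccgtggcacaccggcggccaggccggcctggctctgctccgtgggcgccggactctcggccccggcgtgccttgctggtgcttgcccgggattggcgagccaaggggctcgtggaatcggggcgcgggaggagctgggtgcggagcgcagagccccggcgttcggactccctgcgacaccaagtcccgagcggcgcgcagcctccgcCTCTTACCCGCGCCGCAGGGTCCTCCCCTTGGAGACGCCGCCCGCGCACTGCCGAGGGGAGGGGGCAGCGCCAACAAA
Col4a2: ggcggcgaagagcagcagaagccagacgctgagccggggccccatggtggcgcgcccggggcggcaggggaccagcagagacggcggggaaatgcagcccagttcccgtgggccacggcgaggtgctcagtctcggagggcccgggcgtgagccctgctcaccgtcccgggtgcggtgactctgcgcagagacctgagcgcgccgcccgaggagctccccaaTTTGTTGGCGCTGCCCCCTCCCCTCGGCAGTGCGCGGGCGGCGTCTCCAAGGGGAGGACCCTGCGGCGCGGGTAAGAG
The shared stretch (chr8:11312777-11312854) reads as its reverse complement in the other window, and the first bases of the genes are 21 bases apart.

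Col15a1, which encodes collagen XV and had 4 of the 6 differences between the libraries described further on, and Hspg2, which encodes perlecan, are shown next, from the same source, with GC boxes (GGGCGG on either strand) in capitals. The Col15a1 window is chr4:47207762-47208061 and the Hspg2 window is chr4:137468553-137468852, both on the plus strand.
Col15a1: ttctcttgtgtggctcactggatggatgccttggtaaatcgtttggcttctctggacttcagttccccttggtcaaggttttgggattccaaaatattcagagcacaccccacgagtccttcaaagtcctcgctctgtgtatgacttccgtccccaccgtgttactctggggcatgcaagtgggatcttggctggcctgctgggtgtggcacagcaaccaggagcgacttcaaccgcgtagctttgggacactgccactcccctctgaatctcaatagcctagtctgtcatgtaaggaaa
Hspg2: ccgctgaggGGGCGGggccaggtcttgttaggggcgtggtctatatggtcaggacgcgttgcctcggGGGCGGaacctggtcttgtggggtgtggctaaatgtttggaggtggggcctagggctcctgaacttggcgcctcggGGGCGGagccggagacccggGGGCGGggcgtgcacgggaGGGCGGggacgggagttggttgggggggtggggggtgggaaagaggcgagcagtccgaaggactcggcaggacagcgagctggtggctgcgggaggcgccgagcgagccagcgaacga
The Hspg2 window held 5 GC boxes and the Col15a1 window held 0. Of the 8 members with a promoter sequence, 6 had a GC box, namely Col4a1, Col4a2, Lamb1, Lama5, Nid1 and Hspg2, and 35.7% of 32851 mouse promoter windows of the same length had one. The AP-1 element TGANTCA was found on neither strand in any of the 8 windows, and 7.81% of all windows had it. A CCAAT box (CCAAT on either strand) was present in Col4a1, Col4a2, Lamb1 and Nid1, and in 37.4% of all windows. These matches describe the letters of these windows alone, and binding was not measured.

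The remaining members lie apart from each other in the genome. On GRCm38, as annotated by GENCODE, Col15a1 spans chr4:47208161-47313167, Hspg2 chr4:137468769-137570630, Lamb1 chr12:31265234-31329644, Lamb2 chr9:108479736-108490530, Lamc1 chr1:153218922-153332786, Lama4 chr10:38965515-39110188, Lama5 chr2:180176373-180225859 and Nid1 chr13:13437551-13512269. Lamc1 and Lama5 are on the minus strand and the other 6 on the plus strand, and all are protein-coding. The exons of Col4a1 and Col4a2 overlap by 22 bases, and Nid1 shares 143 exonic bases with the antisense gene Gm48682, which has rows of its own. These overlaps are far from the 3′ ends that the libraries tag. Because a 3′ library counts 1 end per transcript and captures genes unequally, levels are compared here between classes and libraries for the same gene, and not between genes.

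Collagen IV transcripts were highest in VSMCs-2, the larger smooth muscle class. Col4a1 reached 248 CPM in diabetic and 284 CPM in control VSMCs-2, from 1420 diabetic and 791 control UMIs. Fib-2 followed with 180 CPM in diabetic and 208 CPM in control cells, Fib-1 had 163 and 207 CPM, VSMCs-1 160 and 133 CPM, ECs 117 and 114 CPM, and Fib-3 85.6 CPM in diabetic and 113 CPM in control cells. The lead of VSMCs-2 over Fib-2 was 1.38-fold in the diabetic library (95% counting interval 1.23 to 1.55) and 1.37-fold in the control library (1.23 to 1.51). The order among Fib-2, Fib-1 and VSMCs-1 could not be resolved in diabetic cells, since each neighbouring pair had an interval that held 1. Col4a2 had 244 CPM in diabetic and 231 CPM in control VSMCs-2, followed by 167 and 170 CPM in VSMCs-1, 122 and 143 CPM in Fib-2, 111 and 121 CPM in Fib-1, 92.5 and 67.7 CPM in ECs, and 60.4 CPM in diabetic and 47.4 CPM in control Fib-3. In Mac, Col4a1 and Col4a2 stayed between 8.41 and 15.9 CPM in both libraries, from 10 to 24 UMIs.

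Collagen XV had another pattern. This multiplexin sits at the interface of the basement membrane and the underlying collagen fibrils. In the diabetic library Col15a1 was highest in VSMCs-1, at 321 CPM (140 UMIs), followed by Fib-2 at 196 CPM (414 UMIs), VSMCs-2 at 146 CPM (835 UMIs) and Fib-1 at 141 CPM (47 UMIs). In the control library Fib-1 and Fib-2 were at the top, with 341 CPM in Fib-1 (178 UMIs) and 302 CPM in Fib-2 (1099 UMIs), followed by 272 CPM in VSMCs-1 (88 UMIs) and 106 CPM in VSMCs-2 (296 UMIs). In the control library the intervals of Fib-1 against Fib-2 and of Fib-2 against VSMCs-1 held 1, and VSMCs-1 stood 2.56-fold above VSMCs-2 (interval 1.99 to 3.25). In the diabetic library VSMCs-1 stood 1.64-fold above Fib-2 (interval 1.34 to 1.99). ECs had 14 diabetic and 6 control UMIs in all, and Mac had 4 diabetic and 28 control UMIs.

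The laminin alpha chains differed in the classes that held them. Lama4, the alpha chain that lacks the large N-terminal part of the other alpha chains, was highest in Fib-3, at 95.7 CPM in diabetic and 116 CPM in control cells, and VSMCs-2 came next with 53.5 and 51.4 CPM. Lama5, a full-length alpha chain of endothelial and smooth muscle basement membranes, was highest in ECs, at 48.0 CPM in diabetic and 62.2 CPM in control cells, followed by VSMCs-2 with 37.9 CPM in diabetic and 35.2 CPM in control cells. The interval of the ratio of ECs to VSMCs-2 held 1 in the diabetic library and excluded it in the control library. No Lama5 UMI was found in Fib-3 of either library, which allows up to 7.55 CPM in the 67 diabetic and 4.18 CPM in the 117 control cells. Of the Lama4 and Lama5 UMIs together, Lama5 held 78.8% in diabetic ECs (95% Clopper-Pearson interval 65.3 to 88.9) and 64.2% in control ECs (54.3 to 73.2), 41.5% in diabetic and 40.7% in control VSMCs-2, and 8.70% in diabetic and 14.3% in control Fib-2. The intervals of ECs and Fib-2 were apart in each library, and those of the diabetic and control library overlapped in each of the 7 classes.

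Among the beta chains Lamb2 was found in every muscle, fibroblast and endothelial class, and Lamb1 had its highest level in Fib-3. Lamb2, the beta chain of mature vascular basement membranes, had 338 CPM in diabetic and 263 CPM in control VSMCs-2, 320 and 283 CPM in Fib-2, 301 and 311 CPM in Fib-1, 264 and 225 CPM in VSMCs-1, 224 and 217 CPM in Fib-3, and 136 CPM in diabetic and 151 CPM in control ECs. Among the 5 muscle and fibroblast classes every neighbouring pair in the order of levels had an interval that held 1 in both libraries, and ECs lay below the lowest of them, Fib-3. Only neighbours were compared, so this does not make the ends of the order alike, such as diabetic VSMCs-2 at 338 CPM and Fib-3 at 224 CPM. Lamb1, the beta chain widespread in embryonic basement membranes, had 73.0 CPM in diabetic Fib-3 (29 UMIs) and 114 CPM in control Fib-3 (82 UMIs). The next class had 12.9 CPM in the diabetic library (ECs) and 26.8 CPM in the control library (Fib-1), and the 856 diabetic and 496 control VSMCs-2 cells held 0 and 1 UMI of Lamb1. Lamb2 therefore made up 75.4% of beta chain UMIs in diabetic Fib-3 (interval 66.6 to 82.9) and 65.5% in control Fib-3 (59.1 to 71.6), against 91.3% to 100% in the other diabetic and 90.0% to 100% in the other control classes. Lamc1, the gamma chain shared by most laminins, was also highest in Fib-3, at 176 CPM in diabetic and 247 CPM in control cells, and next in Fib-1, at 93.3 CPM in diabetic and 95.9 CPM in control cells.

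**Figure D1:**
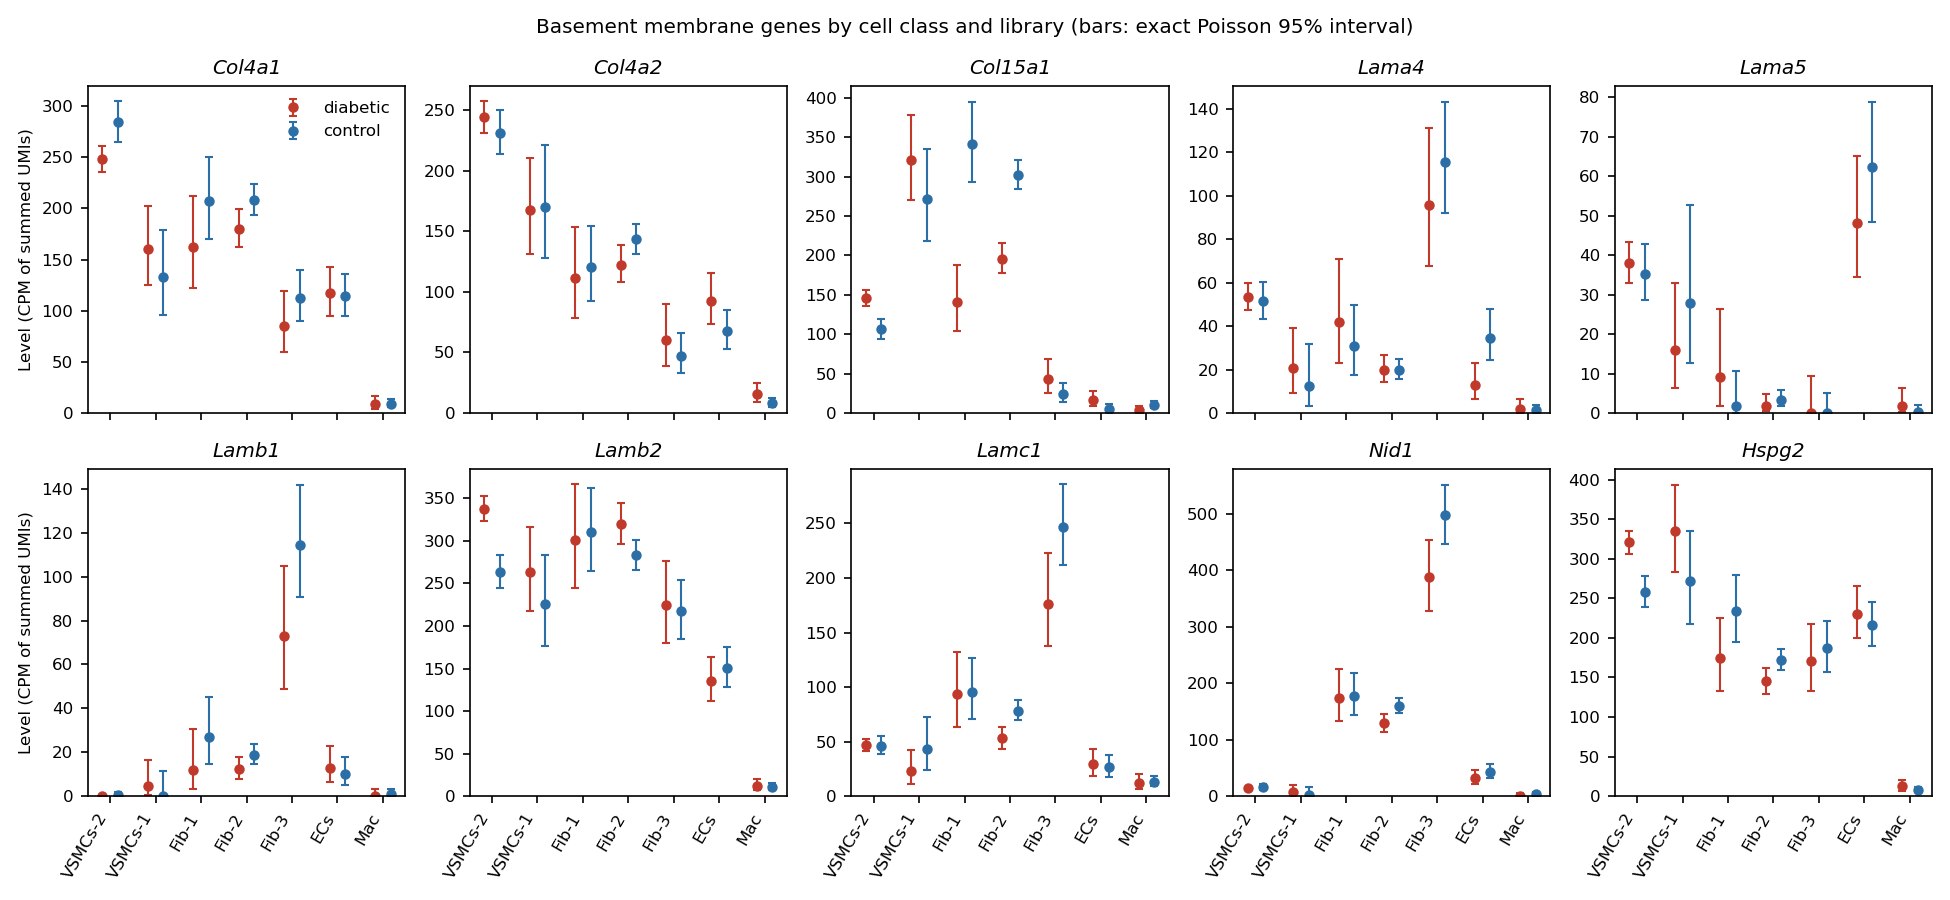
Level of each of the 10 genes in 7 cell classes, in CPM of the UMIs summed per class, with diabetic values in red left of control values in blue and bars for the exact Poisson 95% interval; every panel has its own scale. Col4a1, Col4a2 and Hspg2 peak in smooth muscle, Nid1, Lamb1, Lamc1 and Lama4 in Fib-3 and Lama5 in ECs, and Col15a1 is at 141 and 196 CPM in diabetic Fib-1 and Fib-2, against 341 and 302 CPM in control Fib-1 and Fib-2.

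Nidogen and perlecan, the linker molecules, peaked in different classes. Nid1, whose product bridges the laminin gamma chain and collagen IV, had 388 CPM in diabetic and 497 CPM in control Fib-3, 175 and 178 CPM in Fib-1, and 130 CPM in diabetic and 160 CPM in control Fib-2, against 13.8 CPM in diabetic and 15.8 CPM in control VSMCs-2. The lead of Fib-3 over Fib-1 was 2.22-fold in the diabetic and 2.79-fold in the control library, each with an interval that excluded 1. Hspg2, which encodes the core protein of perlecan, was highest in the smooth muscle classes, at 335 CPM in diabetic and 272 CPM in control VSMCs-1 and 321 CPM in diabetic and 258 CPM in control VSMCs-2. ECs had 231 CPM in diabetic and 216 CPM in control cells, and the fibroblast classes had 145 to 175 CPM in the diabetic and 172 to 234 CPM in the control library. In the control library every neighbouring pair of classes above Mac had an interval that held 1 for Hspg2. Only neighbours were compared, and the ends of that order were VSMCs-1 at 272 CPM and Fib-2 at 172 CPM.

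The share of the collagen IV chains varied less between classes than that of Lama4 and Lama5. Col4a2 held 49.6% of the UMIs of both chains in diabetic VSMCs-2 (interval 47.7 to 51.4) and 44.8% in control VSMCs-2 (42.2 to 47.5), the only class of the 7 in which the diabetic and control intervals did not overlap. In VSMCs-1 the share was 51.0% in diabetic and 56.1% in control cells. In Fib-2 it was 40.5% in diabetic and 40.8% in control cells, in ECs 44.1% and 37.2%, and in Fib-3 41.4% in diabetic and 29.6% in control cells. Over the 14 profiles of 7 classes in 2 libraries the levels of Col4a1 and Col4a2 had a Pearson correlation of 0.94 on the log2(CPM + 10) scale. This was not particular to the pair: it was 0.96 for Col4a1 and Lamb2, and 0.93 both for Lamb2 and Hspg2 and for Col4a1 and Hspg2. The levels of Lamb1 and Nid1 had a correlation of 0.91, those of Lamc1 and Nid1 0.90 and those of Lama5 and Lamb1 -0.48. These are descriptions of 14 points that share libraries and, in Mac, low counts.

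**Figure D2:**
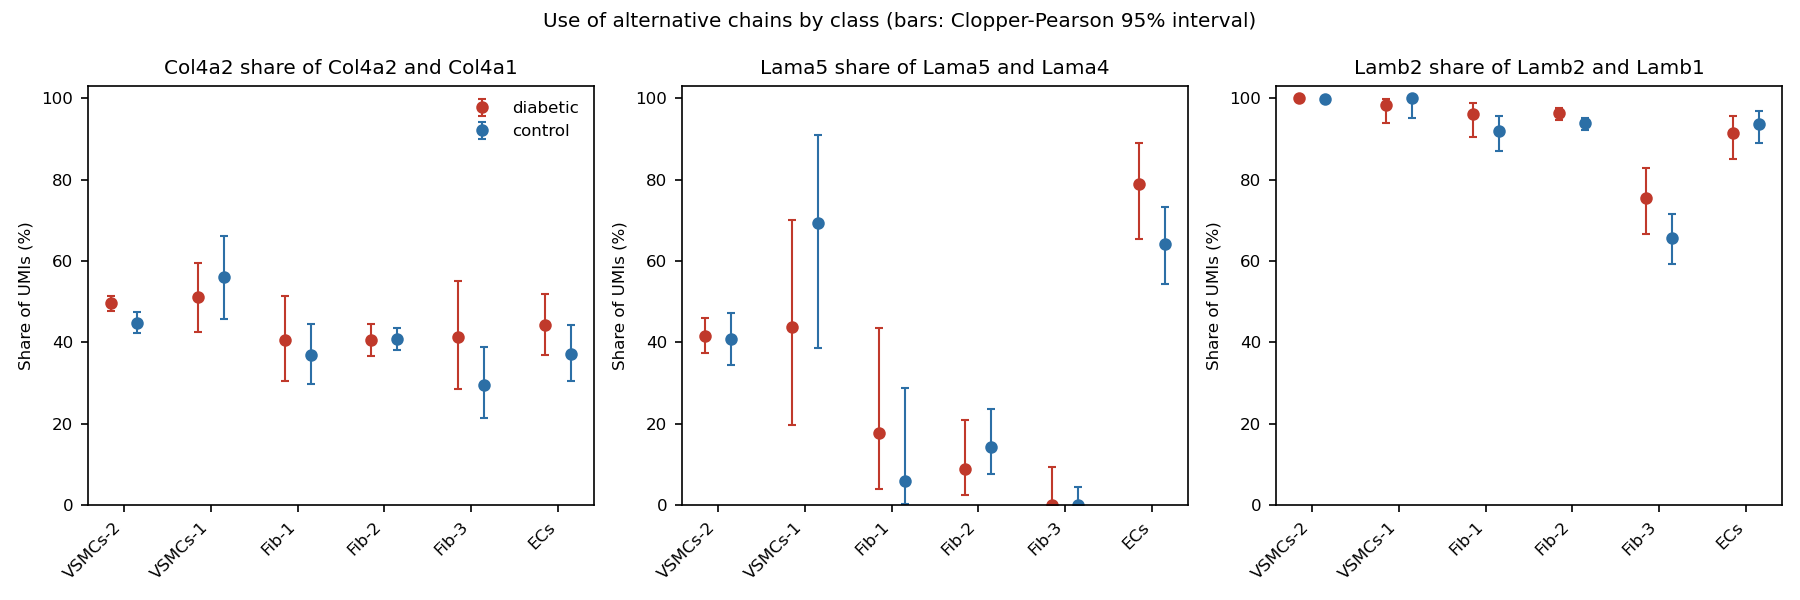
Share of UMIs held by Col4a2 among collagen IV chains, by Lama5 among Lama4 and Lama5, and by Lamb2 among Lamb1 and Lamb2, as percent with Clopper-Pearson 95% intervals, in 6 classes with diabetic cells in red left of control cells in blue. Lama5 reaches 78.8% in diabetic and 64.2% in control ECs and 0% in Fib-3 of both libraries, and Lamb2 is lowest in Fib-3, at 75.4% in diabetic and 65.5% in control cells.

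Immune cells contributed little of any member. The summed level of the 10 genes was 69.9 CPM in diabetic and 66.9 CPM in control Mac, against 728 CPM in diabetic and 731 CPM in control ECs and between 1158 and 1562 CPM in the muscle and fibroblast classes of either library. T cells, B Cells and NKT Cells together serve as a background for RNA set free from other cells. After thinning to 1000 UMIs per cell, 0% to 3.01% of these 133 diabetic cells and 0% to 1.43% of these 70 control cells (median 2177 and 2353 UMIs) had a UMI of a given member. In Mac, with median depths of 4129 and 4506 UMIs, the shares were 0% to 1.51% of 199 diabetic and 0% to 1.81% of 497 control cells. The highest value in Mac, for Lamb2 in control cells, is inside the limit of 4.29% that 0 of 70 control lymphocytes allow. A limit this wide cannot tell low expression in Mac from RNA set free by other cells. The UMIs of these genes in Mac are therefore not read as expression. Mac held 4.83% of the control UMIs of Lamc1, 1.24% of those of Col4a1 and 1.15% of those of Lamb2, and their source was not tested.

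Most transcripts of the 10 genes came from smooth muscle in the diabetic library and from fibroblasts in the control library. The VSMCs-1 and VSMCs-2 classes held 68.1% of the summed UMIs in diabetic and 33.2% in control cells, and the fibroblast classes held 26.3% in diabetic and 58.4% in control cells. For all genes together, smooth muscle classes held 52.0% of diabetic and 25.1% of control UMIs and fibroblast classes 24.0% of diabetic and 39.3% of control UMIs. Fewer or more captured cells of a type and less or more RNA per cell both enter these shares. Col15a1 was 66.2% from smooth muscle in diabetic and 22.4% in control cells. Nid1 and Lamb1 stayed mainly fibroblast transcripts, at 81.1% and 81.9% in diabetic and 90.6% and 91.6% in control cells.

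**Figure D3:**
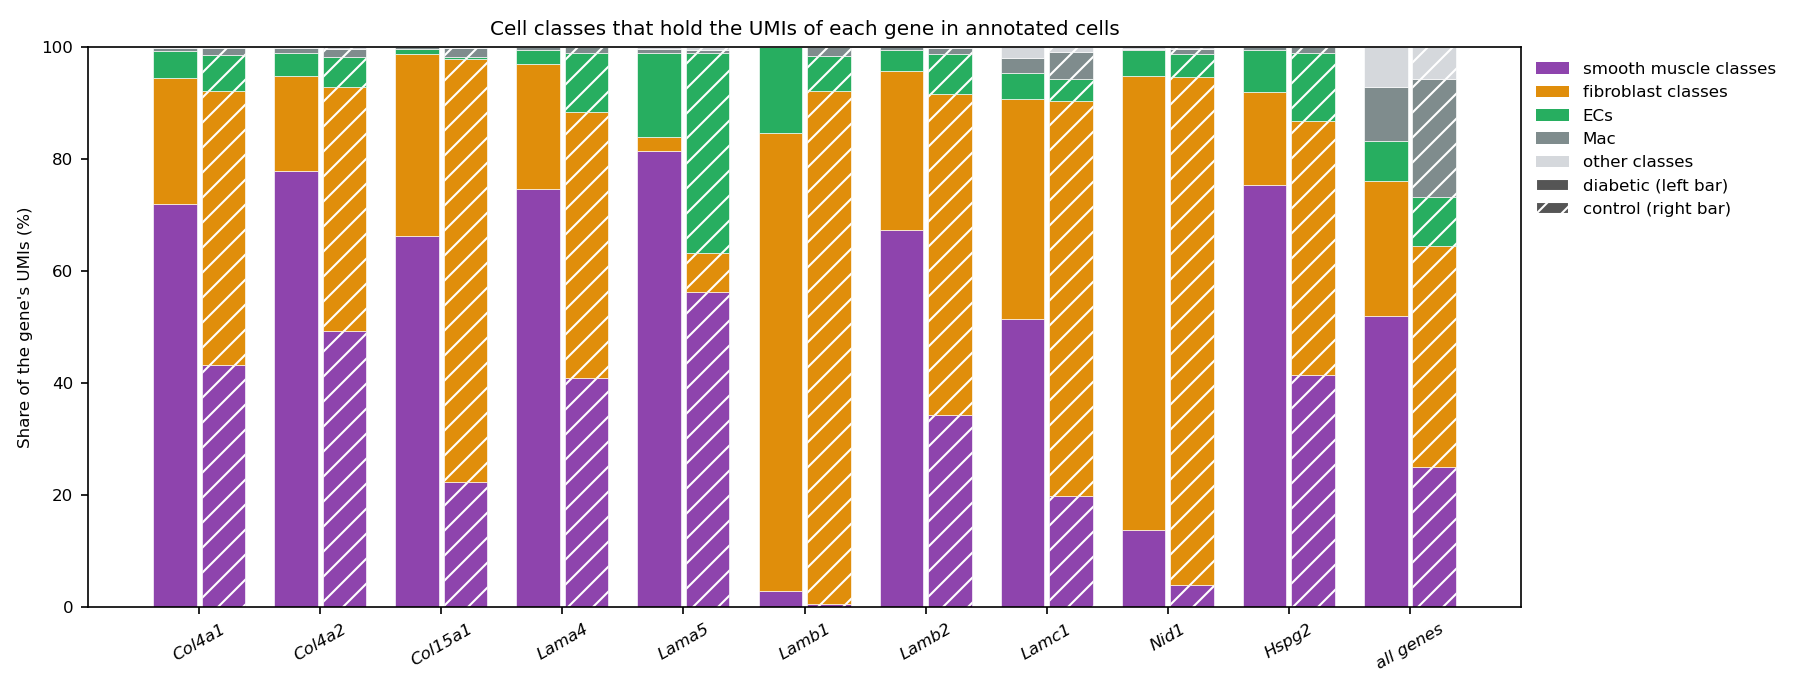
Share in percent of the UMIs of each gene, and of all genes together, that each group of classes holds among annotated cells, with the plain diabetic bar left of the hatched control bar. Smooth muscle classes hold 52.0% of all diabetic and 25.1% of all control UMIs, and 71.9% of Col4a1 and 75.4% of Hspg2 in diabetic cells, against 43.1% and 41.4% in control cells.

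Within classes, few basement membrane genes passed the rule for a difference between the diabetic and the control library, among them collagen XV in Fib-1 and Fib-2. A gene was called higher or lower where the diabetic over control ratio of CPM was at least 1.5-fold and its 95% counting interval excluded 1, among genes with at least 10 UMIs over both libraries. Of 70 pairs of member and class, 62 had the UMIs for this rule. The 8 pairs without them were Lamb1 in VSMCs-1, VSMCs-2 and Mac, Lama5 in Fib-1, Fib-3 and Mac, Lama4 in Mac and Nid1 in VSMCs-1. Among the 62, 1 was higher and 5 were lower in diabetic cells. For 44 of the 62 the interval held 1, for 13 it lay below 1 and for 5 above 1. An interval that holds 1 does not show that the levels were equal, and ratios that did not pass the rule reached from 0.232 for Nid1 to 1.89 for Col4a2, both in Mac.

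Col15a1 was lower in diabetic Fib-1 and Fib-2. In Fib-1 it had 47 UMIs (141 CPM) in 245 diabetic cells and 178 UMIs (341 CPM) in 386 control cells, a ratio of 0.415 (interval 0.294 to 0.575). In Fib-2 it had 414 UMIs (196 CPM) in 533 diabetic cells and 1099 UMIs (302 CPM) in 907 control cells, a ratio of 0.648 (interval 0.577 to 0.726). The Poisson intervals of the diabetic and control levels did not overlap in either class. After thinning to 1000 UMIs per cell, 14.4% of 153 diabetic and 28.0% of 275 control Fib-1 cells had a Col15a1 UMI, and 18.0% of diabetic and 24.4% of control Fib-2 cells; 92 diabetic and 111 control Fib-1 cells were shallower and left out. Without thinning the shares were 17.1% of diabetic and 30.8% of control Fib-1 cells and 40.9% of diabetic and 56.0% of control Fib-2 cells. No cell held more than 6.38% of the Fib-1 or 2.17% of the Fib-2 UMIs of the gene. In Fib-1, Col15a1 was the 1 member of 9 tested that was lower and 0 were higher, beside 3.92% lower and 2.76% higher among all 7071 genes tested in that class. In Fib-2 it was again the 1 of 10 that was lower and 0 were higher, beside 3.69% lower and 5.19% higher among 11534 genes. Fib-3 did not share this direction. It had 17 diabetic and 17 control UMIs (42.8 and 23.7 CPM), a ratio of 1.81 (interval 0.867 to 3.77) that did not pass the rule and lay between 1.78 and 2.08 in the 7 alternatives that gave a value. The ratio in Fib-2 divided by that in Fib-3 was 0.358 (0.181 to 0.709), and that in Fib-1 divided by that in Fib-3 was 0.229 (0.109 to 0.483).

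Transcripts of other cells differed in these classes as well. The 8 fibroblast markers summed to 35387 CPM in diabetic and 39982 CPM in control Fib-1 and to 31960 CPM in diabetic and 42562 CPM in control Fib-2, all 8 detected. The 5 erythroid markers reached 46236 CPM in diabetic and 2527 CPM in control Fib-1, and 7993 CPM in diabetic and 139 CPM in control Fib-2. In Fib-1 the smooth muscle markers were at 1054 CPM in diabetic and 707 CPM in control cells (8 of 8 detected), pericyte markers at 515 and 341 CPM (5 of 6, Higd1b at 0 in both), and macrophage markers at 166 CPM in diabetic (6 of 8, Adgre1 and Mrc1 at 0) and 443 CPM in control cells (8 of 8). In Fib-2 the smooth muscle markers were at 1668 CPM in diabetic and 1103 CPM in control Fib-2 (8 of 8 detected), macrophage markers at 61.9 CPM in diabetic cells (7 of 8, Adgre1 at 0) and 304 CPM in control cells (8 of 8), mesothelial markers at 23.2 CPM in diabetic and 71.0 CPM in control cells (5 of 5), and pericyte markers at 564 CPM in diabetic and 359 CPM in control cells (5 of 6, Higd1b at 0 in both). Adipocyte markers were at 112 CPM in diabetic (4 of 7, Adipoq, Plin1 and Cidec at 0) and 222 CPM in control Fib-2 (6 of 7, Plin1 at 0). No mesothelial marker was found in diabetic Fib-1, and control Fib-1 had 65.2 CPM (4 of 5, Lrrn4 at 0). Without cells over 10% haemoglobin the Col15a1 ratio was 0.433 in Fib-1 and 0.653 in Fib-2. Without mitochondrial, ribosomal protein and haemoglobin genes in the totals it was 0.444 in Fib-1 and 0.680 in Fib-2. Without the 10% of cells with the largest share of other types' markers it was 0.414 in Fib-1 and 0.668 in Fib-2, and after thinning 0.399 in Fib-1 and 0.715 in Fib-2. The Fib-2 ratio missed the 1.5-fold limit in the last 3 of these alternatives.

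No other member passed the rule in Fib-1 or Fib-2. In Fib-2 the ratio was 0.676 for Lamc1 (interval 0.538 to 0.843), from 112 diabetic and 285 control UMIs, just outside the 1.5-fold limit. Col4a1 (0.865), Col4a2 (0.855), Nid1 (0.809) and Hspg2 (0.843) also had intervals below 1, Lamb2 had a ratio of 1.13 (1.02 to 1.24), and Lama4 was at 1.00 (0.669 to 1.49). The median log2 ratio of the 10 members in Fib-2 was -0.28, against 0.03 over all genes tested, and their summed level was 1180 CPM in diabetic and 1389 CPM in control cells, a ratio of 0.849 (0.809 to 0.891). In Fib-1 the summed level was 1222 CPM in diabetic and 1547 CPM in control cells, a ratio of 0.790 (0.699 to 0.891), with a median log2 ratio of -0.12 against -0.07 over all genes. After thinning, which was 1 random draw and kept all 533 diabetic and 907 control cells, the Lamc1 ratio in Fib-2 was 1.27 (0.839 to 1.91). With equal weight per cell, on the same cells, it was 0.715. The thinned value carries the error of that draw, and the cause of the difference was not tested. In the other 7 alternatives its ratio lay between 0.641 and 0.715. It passed the rule with trimmed mean scaling (0.660, 0.525 to 0.824) and without the 10% of cells with the largest share of other types' markers (0.641, 0.504 to 0.811).

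In Fib-3, the fibroblast class with most Nid1, Lamb1, Lamc1 and Lama4, the laminin chain Lamb1 was lower. It had 29 UMIs (73.0 CPM) in 67 diabetic cells and 82 UMIs (114 CPM) in 117 control cells, a ratio of 0.639 (interval 0.403 to 0.987). It was the 1 member of 9 tested that was lower and 0 were higher, beside 4.39% lower and 3.53% higher among 7448 genes. Lamc1 had 70 diabetic and 177 control UMIs and a ratio of 0.715 (0.534 to 0.948), and Nid1 had 154 diabetic and 357 control UMIs and a ratio of 0.779 (0.641 to 0.944). The summed level was 1317 CPM in diabetic and 1562 CPM in control Fib-3, a ratio of 0.843 (0.758 to 0.936). The Lamb1 interval held 1 in 5 alternatives: without cells over 10% haemoglobin (ratio 0.664), without the 5% deepest cells (0.670), without the 3 gene groups in the totals (0.691), without the 10% of cells richest in other markers (0.631), and after thinning, where the ratio was 1.05. With equal weight per cell, which has no interval, the Lamb1 ratio was 0.657. Erythroid markers were at 20472 CPM in diabetic and 113 CPM in control Fib-3, and macrophage markers at 30.2 CPM in diabetic (5 of 8 detected, Adgre1, C1qc and Mrc1 at 0) and 400 CPM in control cells (8 of 8). Their part in the results of the fibroblast classes was not tested.

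**Figure D4:**
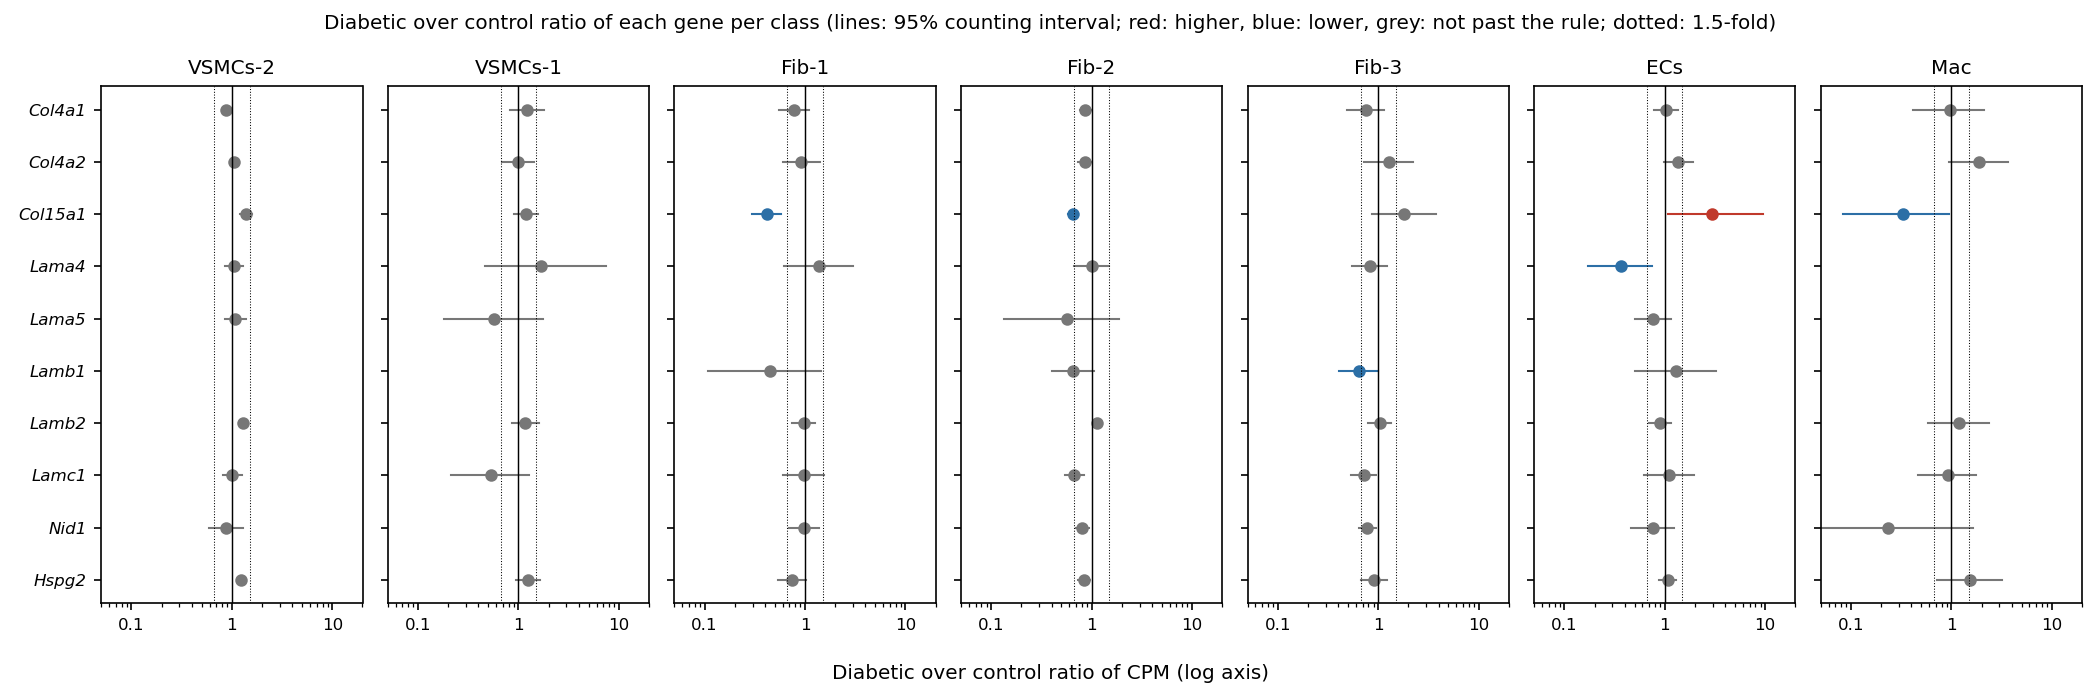
Diabetic over control ratio of CPM for each gene in 7 classes on a log axis, with 95% counting intervals as lines; red points are higher, blue points lower and grey points not past the rule, and dotted lines mark 1.5-fold. Blue points are Col15a1 in Fib-1, Fib-2 and Mac, Lama4 in ECs and Lamb1 in Fib-3, and the red point is Col15a1 in ECs at 2.99.

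In smooth muscle no member passed the rule, and several intervals lay above 1. In VSMCs-2, 0 of 9 members tested were higher and 0 lower, beside 4.33% higher and 4.08% lower among 11498 genes. Lamb2 had 1931 diabetic and 733 control UMIs (338 and 263 CPM) and a ratio of 1.28 (interval 1.18 to 1.40), Hspg2 had 1833 diabetic and 718 control UMIs (321 and 258 CPM) and a ratio of 1.24 (1.14 to 1.36), and Col15a1 had 835 diabetic and 296 control UMIs (146 and 106 CPM) and a ratio of 1.37 (1.20 to 1.57). Col4a1 went the other way, at 0.874 (0.800 to 0.954). After thinning to 1000 UMIs, 12.9% of diabetic and 7.66% of control VSMCs-2 cells had a Col15a1 UMI, and 28.9% of diabetic and 21.0% of control cells a Lamb2 UMI. In this 1 random draw the ratios were 1.72 for Col15a1 (1.21 to 2.50) and 1.53 for Lamb2 (1.23 to 1.92), past the rule. With equal weight per cell, on the same cells, they were 1.44 for Col15a1 and 1.27 for Lamb2, short of 1.5-fold. The summed level was 1449 CPM in diabetic and 1292 CPM in control cells, a ratio of 1.12 (1.08 to 1.17), and the median log2 ratio was 0.08, against 0.01 over all genes. In VSMCs-1, 0 of 8 members tested were higher and 0 lower, beside 2.54% higher and 3.77% lower among 6347 genes, and the summed ratio was 1.14 (0.998 to 1.30). Lamb2 had a ratio of 1.17 (0.865 to 1.59) in VSMCs-1. After thinning it was 2.33 (1.16 to 4.98), past the rule, with a Lamb2 UMI in 22.3% of 121 diabetic and 10.1% of 109 control cells, and with equal weight per cell it was 1.00.

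Pericyte markers were more abundant in diabetic VSMCs-2. The 6 of them, all detected, summed to 2270 CPM in diabetic and 1220 CPM in control VSMCs-2, and to 2573 CPM in diabetic and 2656 CPM in control VSMCs-1. Fibroblast markers were at 1213 CPM in diabetic and 2039 CPM in control VSMCs-2 (8 of 8 detected), and erythroid markers at 11577 CPM in diabetic (5 of 5) and 116 CPM in control cells (4 of 5, Alas2 at 0). In VSMCs-1 the erythroid markers were at 37121 CPM in diabetic and 18990 CPM in control cells (5 of 5). Their part in the results was not tested. The median depth was 6523 UMIs in diabetic and 5547 UMIs in control VSMCs-2 cells.

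The Col15a1 ratios of Fib-1 and Fib-2 differed from that of VSMCs-2 by more than counting error. The ratio in Fib-2 divided by the ratio in VSMCs-2 was 0.472 (interval 0.396 to 0.561), and that in VSMCs-2 divided by that in Fib-1 was 3.31 (2.34 to 4.69). Against Fib-3 no such difference was resolved, with 0.760 (0.383 to 1.51) for the ratio in VSMCs-2 divided by that in Fib-3. For Hspg2 the ratio in Fib-2 divided by that in VSMCs-2 was 0.678 (0.577 to 0.797). Over all members 168 pairs of classes were compared in this way, and 29 had an interval that excluded 1, without adjustment for their number. These intervals set classes of the same pair of libraries against each other and say nothing of variation between mice.

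In endothelium Lama4 was lower and Col15a1 higher, both on few UMIs. Lama4 had 11 UMIs (12.9 CPM) in 228 diabetic ECs and 38 UMIs (34.8 CPM) in 366 control ECs, a ratio of 0.371 (interval 0.171 to 0.740). Each of the 11 diabetic UMIs was in another cell, and 32 control cells held the 38. Lama5, its fellow alpha chain, had 41 diabetic and 68 control UMIs and a ratio of 0.772 (0.511 to 1.15). The Lama4 ratio stayed between 0.313 and 0.388 in the 7 alternatives that left at least 10 UMIs, and thinning left too few. Col15a1 had 14 UMIs (16.4 CPM) in diabetic and 6 UMIs (5.49 CPM) in control ECs, a ratio of 2.99 (1.08 to 9.48), but 11 of the 14, or 78.6%, were in 1 cell. That cell had 8373 UMIs, against a median of 3504 in diabetic ECs, with 52 UMIs of endothelial markers, 1 of smooth muscle markers and 0 of fibroblast and pericyte markers, and without it the gene had fewer than the 10 UMIs the rule asks for. These were 1 higher and 1 lower of 10 members tested in ECs, beside 4.11% higher and 3.24% lower among 9285 genes.

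No other member passed the rule in ECs. Hspg2 had 197 diabetic and 236 control UMIs and a ratio of 1.07 (interval 0.880 to 1.30), Col4a1 had a ratio of 1.02 (0.779 to 1.34), and the summed level was 728 CPM in diabetic and 731 CPM in control ECs, a ratio of 0.997 (0.896 to 1.11). Col4a2 had 79 diabetic and 74 control UMIs and a ratio of 1.37 (0.983 to 1.90). After thinning the Col4a2 ratio was 2.05 (1.08 to 3.94), past the rule, with a UMI in 9.09% of 220 diabetic and 4.96% of 343 control ECs, and without the 3 gene groups in the totals it was 1.43 (1.03 to 1.99). Nid1 had a ratio of 0.763 (0.460 to 1.24) and Lamb1 1.28 (0.503 to 3.26). Endothelial markers summed to 8639 CPM in diabetic and 8991 CPM in control ECs, lymphatic endothelial markers to 224 CPM in diabetic and 74.1 CPM in control cells (5 of 5 detected), and adipocyte markers to 171 CPM in diabetic (7 of 7) and 28.4 CPM in control cells (4 of 7, with Adipoq, Plin1 and Cidec at 0). The part of these other cells in the Lama4 value was not tested.

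In Mac, 1 of 7 members tested was lower and 0 were higher, beside 4.54% lower and 8.16% higher among 10111 genes. It was Col15a1, with 4 diabetic and 28 control UMIs and a ratio of 0.331 (interval 0.0843 to 0.946). Fibroblast markers were at 458 CPM in diabetic and 578 CPM in control Mac (8 of 8 detected). Smooth muscle markers were at 912 CPM in diabetic and 322 CPM in control Mac (8 of 8), pericyte markers at 46.0 CPM in diabetic and 16.8 CPM in control Mac (4 of 6, Notch3 and Higd1b at 0 in both), and T cell markers at 1144 CPM in diabetic and 580 CPM in control Mac (5 of 5). Their part in the Mac values was not tested. The interval of Col15a1 held 1 without the 10% of cells with the largest share of other types' markers, where the ratio was 0.417 (0.0450 to 1.91). It also held 1 without mitochondrial, ribosomal protein and haemoglobin genes in the totals (0.355, 0.0905 to 1.02) and without the 5% of cells with most UMIs (0.348, 0.0886 to 1.0001). The thinned share of cells with a Col15a1 UMI was 0% of diabetic and 0.805% of control Mac, inside the limits of the lymphocyte background given above.

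Over all annotated cells the ratios differed from those at a fixed class make-up. Pooled, Lama5 was higher at 23.2 CPM in diabetic and 15.3 CPM in control cells (ratio 1.52, interval 1.26 to 1.83), Lamb1 lower at 6.08 CPM in diabetic and 14.4 CPM in control cells (0.421, 0.316 to 0.557), and Nid1 lower at 50.6 CPM in diabetic and 91.9 CPM in control cells (0.551, 0.498 to 0.608). These were 1 higher and 2 lower of 10, beside 8.48% higher and 9.55% lower among 14529 genes. When diabetic class levels were weighted by the share of UMIs of each class in the control library, the ratio was 0.948 for Lama5, 0.664 for Lamb1 and 0.809 for Nid1. For Hspg2 the same step gave 1.04 in place of 1.41, for Col4a2 1.01 in place of 1.40, for Col4a1 0.878 in place of 1.12, and for the sum of the 10 genes 0.948 in place of 1.14. For Lamb2 it gave 1.14 in place of 1.35, and for Col15a1 0.790 in place of 0.899.

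**Figure D5:**
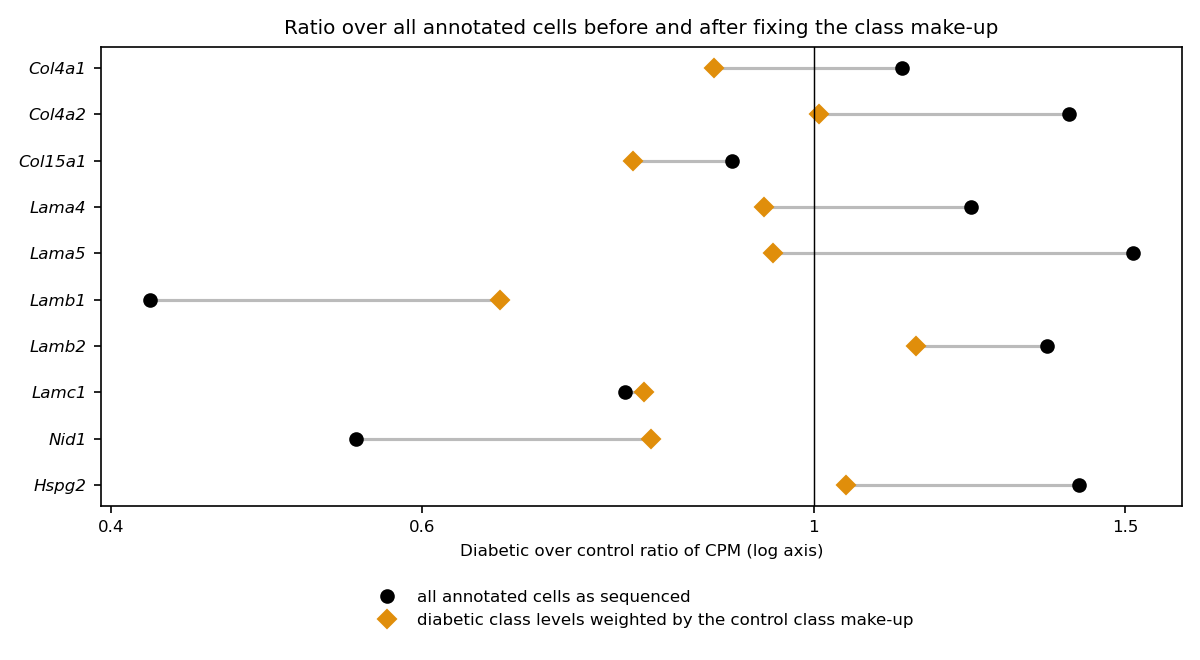
Diabetic over control ratio of CPM over all annotated cells on a log axis, as sequenced (black circles) and with diabetic class levels weighted by the control class make-up (orange diamonds). Lama5 lies at 1.52 and 0.948, Nid1 at 0.551 and 0.809, and Lamb1 at 0.421 and 0.664.

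The other genes of basement membrane biology are given by lists. Of 24 further components, 23 were in the files, and over the 7 classes 10 of 97 pairs of gene and class tested were higher and 6 lower in diabetic cells. Over the 7 classes together, 4.62% of all 63294 pairs tested were higher and 3.95% lower, the background for this and the next lists. Smoc1, a calcium-binding matricellular protein of basement membranes, was higher in the 3 classes where it was named: it had 401 diabetic and 326 control UMIs in Fib-2 (ratio 2.11, interval 1.82 to 2.45), 158 and 68 in VSMCs-1 (1.72, 1.29 to 2.33) and 710 diabetic and 213 control UMIs in VSMCs-2 (1.62, 1.39 to 1.90). Lamc3, a gamma chain less widespread than Lamc1, was higher in Fib-2 (151 diabetic and 154 control UMIs, ratio 1.69, 1.34 to 2.12) and VSMCs-2 (119 and 36 UMIs, 1.61, 1.10 to 2.41). Col4a5, a collagen IV chain of other trimers, was lower in Fib-1 (27 diabetic and 73 control UMIs, 0.581, 0.359 to 0.914). Sparc, a collagen-binding matricellular protein, was lower in Fib-2 (0.504) and Fib-3 (0.603), Ntn4 (0.335), a laminin-related netrin, was lower and Smoc2 (1.75) higher in Fib-3, and Col18a1, the other multiplexin, was higher in Mac (28 diabetic and 14 control UMIs, 4.63, 2.36 to 9.52). After thinning, Col18a1 was found in 1.51% of diabetic and 0.604% of control Mac, against 2.26% of diabetic lymphocytes and 0 of 70 control lymphocytes, which allows up to 4.29%. These shares cannot tell low expression in Mac from RNA set free by other cells, so Col18a1 is not read as expression in Mac. The other cell markers given above for Mac stand beside this value too, and their part was not tested.

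More enzymes and chaperones that make collagen were lower than higher in diabetic cells. In the list of 15 genes for collagen folding, secretion and crosslinking, 22 of 102 pairs tested were lower and 1 was higher in diabetic cells. Serpinh1, the collagen chaperone HSP47, was lower in all 6 muscle, fibroblast and endothelial classes: it had 4843 diabetic and 16770 control UMIs in Fib-2 (2290 and 4612 CPM, ratio 0.496), and the ratio was 0.506 in Fib-1, 0.521 in Fib-3, 0.568 in VSMCs-2, 0.573 in ECs and 0.635 in VSMCs-1. P4ha2, a prolyl hydroxylase subunit, was lower in 5 of them, with ratios of 0.419 in Fib-1, 0.446 in Fib-2, 0.471 in ECs, 0.504 in Fib-3 and 0.661 in VSMCs-2. P4ha1, its paralogue, was lower in VSMCs-1 (0.424), VSMCs-2 (0.513), ECs (0.520) and Fib-3 (0.644), and the lysyl hydroxylase Plod1 in Fib-1 (0.500), Fib-2 (0.629) and VSMCs-2 (0.657). Loxl2, which crosslinks collagen IV, was lower in Fib-2 (52 diabetic and 202 control UMIs, 0.443, 0.320 to 0.603). The median log2 ratio of this list was -0.40 in Fib-2, against 0.03 over all genes, and -0.09 in VSMCs-2, against 0.01 over all genes. It was -0.50 in Fib-1, -0.26 in Fib-3, -0.19 in Mac and -0.17 in ECs, but 0.06 in VSMCs-1, where 8 ratios were above 1 and 7 below, against 0.01 over all genes in VSMCs-1.

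Receptors and degrading enzymes had calls in both directions, with counts near the background of all genes for the receptors. Of the 14 receptors, 5 of 72 pairs tested were higher and 4 lower in diabetic cells. They included Itga6, a laminin-binding integrin chain, higher in ECs (23 diabetic and 14 control UMIs, ratio 2.10, 1.04 to 4.42), Bcam, a receptor of Lama5-containing laminins, lower in VSMCs-1 (73 and 101 UMIs, 0.537, 0.391 to 0.732), and Itga7, an integrin chain of muscle, lower in VSMCs-1 (0.510) and higher in Fib-2 (1.78). Of the 11 degrading enzymes and inhibitors, 5 of 64 pairs tested were higher and 7 lower, beside 4.62% higher and 3.95% lower over all genes. Those higher included Adamts1 in Fib-2 (518 diabetic and 586 control UMIs, 1.52, 1.35 to 1.71), Timp2 in VSMCs-1 (143 and 68 UMIs, 1.56, 1.16 to 2.12) and Mmp19 in Mac (46 and 58 UMIs, 1.84, 1.22 to 2.75). Mmp3, the protease stromelysin, was lower in VSMCs-2 (120 diabetic and 158 control UMIs, 0.370, 0.289 to 0.472) and Fib-1 (438 and 1157 UMIs, 0.594, 0.531 to 0.664), Mmp2, a gelatinase that cleaves collagen IV, was lower in VSMCs-2 (0.549) and Fib-1 (0.662), and the inhibitor Timp1 was lower in Fib-2 (0.617) and VSMCs-2 (0.644) and higher in Fib-3 (1.85). Mmp3 was at 21.0 CPM in diabetic and 56.8 CPM in control VSMCs-2, against 1318 and 2218 CPM in Fib-1. Mmp2 was at 18.5 CPM in diabetic and 33.8 CPM in control VSMCs-2, against 406 and 614 CPM in Fib-1. Fibroblast markers in VSMCs-2 were at 1213 CPM in diabetic and 2039 CPM in control cells. The part of fibroblast RNA in these VSMCs-2 values was not tested.

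Joint detection of the collagen IV chains in single cells was examined in Fib-2 and VSMCs-2. After thinning to 1000 UMIs, Col4a2 was found in 16.9% of diabetic Fib-2 cells with a Col4a1 UMI (interval 9.54 to 26.7) and in 11.8% of those without one (8.95 to 15.1). In control Fib-2 the shares were 21.6% (15.3 to 28.9) and 10.1% (8.02 to 12.5). In VSMCs-2 they were 23.4% (17.3 to 30.5) and 18.8% (16.0 to 22.0) of diabetic cells, and 23.4% (15.7 to 32.5) and 16.7% (13.1 to 20.8) of control cells. Control Fib-2 was the only 1 of these 4 cases in which the intervals did not overlap. Joint detection was 1.18 to 1.98 times the product of the separate shares in the 6 combinations of class and library with at least 20 cells holding each gene. Over all pairs of members with at least 20 such cells for each gene in Fib-2 this value lay between 0.612 and 1.89 for 21 pairs in diabetic cells and between 0.684 and 1.79 for 28 pairs in control cells. For Col4a1 and Col4a2 it was 1.34 in diabetic Fib-2, below that of Col4a2 and Nid1 (1.89), Nid1 and Hspg2 (1.72) and Col4a1 and Lamc1 (1.64), and 1.79 in control Fib-2, the highest of the 28.

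By the rule of the closest profiles over 14 class and library profiles and 10405 genes, the genes most like the members were found as follows. Nid1 was closest to Vit (r = 0.99), Tmem100 and Igfbp5, Hspg2 to Htra1 (0.99), Cbx6 and Snrpn, and Lama5 to Tinagl1 (0.98), Tgm2 and Kalrn. Col15a1 was closest to Col4a5 (0.97), Crispld2 and Fibin, Lamb2 to Nedd4 (0.98), Fkbp10 and Gstm2, and Lamc1 to Tnxb (0.98), Ebf1 and Adamts5. Col4a1 was closest to Snrpn (0.96), Lamb2 and Ccser2, Col4a2 to Fhl1 (0.97), Svil and Auts2, Lamb1 to Uap1 (0.96), Radil and Cd55, and Lama4 to Spsb1 (0.91), Tmem65 and Kctd17. These correlations have no test, and their points share libraries and depth.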

How the data were processed

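Droplet 3′ RNA sequencing was done on 1 library per group, each from the pooled aortic cells of 4 mice. The authors deposited raw UMI counts per gene and barcode, and a table of cell classes. Cell Ranger 3.1.0, Partek and the mm10 build are named per the submitters' processing notes. The annotation release and the barcode filter are not given in the sources used here. All columns of per-sample values were used (0 left out).

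From the deposited counts, UMIs were summed per class and library and scaled to CPM of that sum, with exact Poisson intervals. Ratios (diabetic over control) had exact conditional binomial intervals, and shares had Clopper-Pearson intervals, all at 95% and for counting error only. UMIs were in cells, not replicates, so no p-value was computed. A class needed 50 cells in each library, a gene 10 UMIs, and a call 1.5-fold. Against a count of 0 the ratio is a bound, taken at 3 UMIs. No doublet caller was run, and an alternative left out the 5% of cells with most UMIs. The other alternatives were trimmed mean scaling (edgeR 4.0.16 in R 4.3.3), a total without mitochondrial, ribosomal protein and haemoglobin genes, thinning, equal weight per cell, a 2-fold rule, a minimum of 30 UMIs, and leaving out cells rich in haemoglobin or in other types' markers. Simulated counts were used to test the ratio step. Python 3.11.15, numpy 2.4.6, scipy 1.17.1, pandas 2.3.3 and matplotlib 3.10.9 were used.

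All 10 members are named. Of the other lists, up to 4 genes per class are named, those past the rule with at least 30 UMIs whose interval bound lay furthest from 1. A result that this rule picks in Fib-3 is not reported here. The 3 most alike genes had the highest Pearson correlation of log2(CPM + 10) among genes with at least 100 UMIs. The members and lists were chosen with earlier results of these data known.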

Additional observations from a re-analysis of the deposited data

Results flagged for a closer look

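Col15a1 in ECs was set apart because its diabetic over control ratio pointed the other way from that in Fib-2, Mac and Fib-1. The ratios were 2.99 and 0.648 in ECs and Fib-2, 2.99 and 0.331 in ECs and Mac, and 2.99 and 0.415 in ECs and Fib-1. With counting error alone, the ratio in Fib-2 divided by that in ECs was 0.217 (interval 0.0828 to 0.568), that in Mac divided by that in ECs was 0.111 (0.0268 to 0.458), and that in Fib-1 divided by that in ECs was 0.139 (0.0506 to 0.381). The ratios of 1.81 in Fib-3, 1.37 in VSMCs-2 and 1.18 in VSMCs-1 were on the same side of 1 as that in ECs. With 1 library per group the difference was not tested against variation between mice. The endothelial value came from 14 diabetic and 6 control UMIs, and 78.6% of the diabetic UMIs were in 1 cell.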

How the results depend on the processing

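Of the ratios of single members, 459 of 476 recomputed values kept their place, 16 moved and 1 value past the rule turned round: Lamb1 in Fib-3 was 1.05 after thinning to 1000 UMIs. Of the 476, 46 lay on the other side of 1 from the reported value, among them, after thinning, Lamc1 in Fib-2 at 1.27, Lama4 in Fib-3 at 1.75 and Lamb2 in Mac at 0.277, and, without the 10% of cells richest in other markers, Col4a2 in Mac at 0.675 and Lamb2 in Mac at 0.574. Thinning was 1 random draw, and the thinned values carry its error. With equal weight per cell the ratio was 0.715 for Lamc1 in Fib-2, 0.657 for Lamb1 and 0.851 for Lama4 in Fib-3, and 1.02 for Lamb2 in Mac. The summed ratio lay between 0.798 and 0.863 in Fib-1, between 0.844 and 0.917 in Fib-3, between 1.02 and 1.19 in VSMCs-1 and between 0.581 and 1.12 in Mac. After thinning, the medians (log2) were -0.14 in Fib-2, -1.85 in Mac, 0.067 in Fib-3 and 0.21 in VSMCs-2, the summed ratios 0.581 in Mac, 0.903 in Fib-2, 1.13 in ECs and 1.23 in VSMCs-2, the members lower 0 in ECs, Fib-2, Fib-3 and Mac, and those higher 1 in VSMCs-1 and 2 in VSMCs-2. With equal weight per cell the medians were -0.0073 in VSMCs-1 and -0.49 in Mac, the summed ratio in Mac 0.764, the members higher 1 in Fib-3 and 2 in ECs, and those lower 2 in ECs, Fib-1 and VSMCs-1 and 3 in Fib-2 and Mac. Without mitochondrial, ribosomal protein and haemoglobin genes, Fib-2 had a median of -0.21 and a summed ratio of 0.891, 0 members were lower in Fib-2, Fib-3 and Mac, and 1 was higher in Mac. Without the 5% of cells with most UMIs the median in ECs was -0.14, 0 members were higher in ECs and 1 in Mac, and 0 were lower in Fib-3 and Mac. Without the 10% of cells with the largest share of other types' markers, a setting chosen after seeing the data, Mac had a median of -0.62 and a summed ratio of 0.695, and 0 members were lower in Fib-3 and Mac. The planned filter on cells with 3 or more such UMIs was not run, since it left under 50 cells of a library in all 7 classes. Members lower were 0 in Fib-2 and Fib-3 under a 2-fold rule, 0 in Fib-3 without cells over 10% haemoglobin, and 2 in Fib-2 with trimmed mean scaling. Members higher in ECs were 0 with a minimum of 30 UMIs and 0 without the cell holding most UMIs of the gene. At the control class make-up, also chosen after seeing the data, Lama5 over all annotated cells turned to 0.948. Except where fewer cells or UMIs entered by construction, the cause was not tested. No paired analysis was possible because each group has 1 library. Depth limits Lama5, Lamb1 and Lama4 most, with 465, 251 and 782 UMIs over all annotated cells of both libraries.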

Other observations

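Barcodes to which the authors gave no class also held basement membrane transcripts. The 934 unclassified diabetic barcodes had 226 CPM of the 10 genes together and the 1155 unclassified control barcodes 616 CPM. Among those with at most 50% haemoglobin the level was 573 CPM in 447 diabetic and 663 CPM in 1126 control barcodes, against 1099 CPM in annotated diabetic and 965 CPM in annotated control cells. Among the small immune classes the sum was 52.2 CPM in diabetic and 55.1 CPM in control Foam cells, and 4.50 CPM in diabetic and 15.5 CPM in control MoDC.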
